A study of Mus musculus with 8 samples.

Results

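Resident fibroblast identity markers are genes that cardiac and other fibroblasts express at rest and that mark them as a lineage or as a universal, adventitia-like state. The 10 examined here were *Pdgfra*, *Tcf21*, *Pi16*, *Dpt*, *Cd248*, *Mfap5*, *Mfap4*, *Scara5*, *Dpep1* and *Gsn*. They were taken by gene symbol from the 54532 genes of the deposited expression table. The rule uses no measured value, but the genes were chosen with earlier results of these data known. All 10 were among the 15708 genes with an FPKM (fragments relative to gene length and library size) of at least 0.5 in at least 2 libraries, which were the genes tested.

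The cells were MICFs, cardiac fibroblasts cultured from the infarcted area of mouse hearts, in which all 4 groups carried the factor set labelled MGTMyoS overexpression and eGFP. In this set a polycistronic MGT construct (Mef2c, Gata4 and Tbx5) was combined with Myocd and Sall4, each delivered by lentivirus under tetracycline-inducible control and switched on with doxycycline. The *in vivo* samples were eGFP+ cells sorted after transplantation into hearts with myocardial infarction (MI), and the *in vitro* samples were eGFP+ cells of the same kind kept in culture. Each was sampled at 1 week and 2 weeks (Days 7 and 14), with 2 libraries per group and 8 in all. The mice were wild-type C57BL/6 males 8 weeks old when bought, and the hosts received tacrolimus, methylprednisolone and mycophenolate mofetil. The culture medium held the TGF-β receptor inhibitor SB431542 and the JAK inhibitor baricitinib, so that the heart, the host's drugs and the medium all differ between the *in vivo* and *in vitro* samples and cannot be told apart. The animals or wells behind each replicate are not given in the sources used here, so the tests measure only the spread between libraries, which may be technical.

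Fibroblasts at rest in the heart descend largely from the epicardium, keep the growth factor receptor PDGFRα and the transcription factor TCF21, and hold the matrix between myocytes. Fibroblasts along vessel walls in many organs share a *Pi16* and *Dpt* programme that single-cell atlases call universal, and after injury cells of this kind can take on an activated, matrix-depositing state. In direct reprogramming the fibroblast programme is meant to be silenced while cardiomyocyte genes are switched on, and these markers are part of that fibroblast programme. The study timed the isolation of MICFs after MI to obtain cells in a myofibroblast state and not at rest. The samples hold no library of the starting cells, so the level of the markers at the start is not known.

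Start regions are shown for 4 members, so that the gene with the widest difference between the *in vivo* and *in vitro* samples stands beside genes with smaller ones. RefSeq windows of 250 bases before to 50 bases after a transcript start on GRCm38.p6 were found for 6 of the 10 members, namely *Pdgfra*, *Tcf21*, *Pi16*, *Dpt*, *Dpep1* and *Gsn*. *Cd248*, *Mfap5*, *Mfap4* and *Scara5* had no entry. The windows below are those of the member with the largest difference (*Pi16*, chr17:29318632-29318931, plus strand), an abundant matrix gene (*Dpt*, chr1:164796413-164796712, plus strand) and both lineage genes (*Pdgfra*, chr5:75152001-75152300, plus strand, and *Tcf21*, chr10:22820094-22820393, minus strand). Capitals mark CAGCTG, an E-box of the kind that TCF21 and related basic helix-loop-helix factors bind, and TATAAA, the TATA box.
Pi16: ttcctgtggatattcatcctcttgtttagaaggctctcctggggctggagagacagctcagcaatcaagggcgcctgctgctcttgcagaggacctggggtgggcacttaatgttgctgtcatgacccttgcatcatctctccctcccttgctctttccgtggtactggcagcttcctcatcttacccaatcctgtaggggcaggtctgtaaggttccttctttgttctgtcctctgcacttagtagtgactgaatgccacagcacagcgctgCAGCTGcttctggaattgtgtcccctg
Dpt: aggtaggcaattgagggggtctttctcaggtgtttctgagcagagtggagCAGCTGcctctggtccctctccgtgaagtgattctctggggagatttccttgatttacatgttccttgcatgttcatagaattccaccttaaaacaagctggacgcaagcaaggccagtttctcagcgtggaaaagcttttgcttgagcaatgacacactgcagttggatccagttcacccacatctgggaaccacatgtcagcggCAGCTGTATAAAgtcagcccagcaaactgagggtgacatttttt
Pdgfra: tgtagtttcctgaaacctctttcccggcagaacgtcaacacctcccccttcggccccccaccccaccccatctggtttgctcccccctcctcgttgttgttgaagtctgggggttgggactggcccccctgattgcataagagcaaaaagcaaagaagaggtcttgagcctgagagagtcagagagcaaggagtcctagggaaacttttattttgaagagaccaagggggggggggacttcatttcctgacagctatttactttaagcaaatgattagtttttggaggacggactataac
Tcf21: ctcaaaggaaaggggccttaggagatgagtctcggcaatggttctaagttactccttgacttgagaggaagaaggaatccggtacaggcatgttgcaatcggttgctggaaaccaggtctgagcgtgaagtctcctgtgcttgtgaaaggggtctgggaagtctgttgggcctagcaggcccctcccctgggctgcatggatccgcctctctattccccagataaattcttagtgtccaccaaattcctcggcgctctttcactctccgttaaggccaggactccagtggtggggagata

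CAGCTG, which reads the same on both strands, occurred in windows of *Pi16*, *Dpt*, *Dpep1* and *Gsn* and not in those of *Pdgfra* and *Tcf21*. *Gsn* had several windows, and the one at chr2:35282130-35282429 did not hold it. Of all 32851 RefSeq windows of this length, 16.3% held CAGCTG, a share per window and not per gene. *Dpt* had 2 copies, and its TATAAA directly followed the second of them without overlap, downstream of the annotated start. TATAAA, searched on both strands, occurred in 13.6% of all windows. The AP-1 sequence TGANTCA, found in 7.81% of all windows, had no match in these windows. A match describes the letters of the window and says nothing of binding.

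The libraries held 12304242 to 14546904 fragments on genes, and the members were counted with 38 to 132237 fragments per library. Between the libraries of a group, the coefficient of variation of a member's FPKM had a median of 4.79% and reached at most 16.5%. All 7 fibroblast markers of the checking list were present at 1 FPKM or more in every library, with summed FPKM of 8820 to 11310 *in vivo* and 1936 to 2993 *in vitro*. This list shares *Pdgfra* with the members, and *Dcn*, *Lum*, *Col1a1* and *Col3a1* with the resting and activated fibroblast lists compared below. Its sum is therefore not an independent measure of fibroblast content. Markers of other cells were present too. The 12 macrophage markers were all at 1 FPKM or more in every library and summed to 2009 to 3150 *in vivo* and 4951 to 6073 *in vitro*. The 8 mesothelial markers summed to 15.3 to 34.9 *in vivo* and 242 to 516 *in vitro*, the 12 cardiomyocyte markers to 16.5 to 48.9 and 166 to 1229, the 8 mural markers to 153 to 186 and 141 to 228, and the 10 endothelial markers to 85.3 to 109 and 25.0 to 64.6. The 4 adipocyte markers had at most 3 fragments each in every library, with *Adipoq* and *Lep* at 0. The study describes MICFs as isolated as holding some macrophages and endothelial cells. The fibroblast, macrophage, mesothelial, cardiomyocyte and endothelial sums did not overlap between *in vivo* and *in vitro* samples, the mural sums did, and their part in the differences below was not tested. In bulk libraries, fewer fibroblasts and less RNA per fibroblast cannot be told apart.

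The first comparison asked how much of the resting fibroblast programme the cells held in the infarcted heart against culture. *Pi16*, *Mfap4*, *Mfap5*, *Dpt* and *Scara5* were higher *in vivo* at both weeks, from 3.47-fold for *Scara5* at 1 week to 335-fold for *Pi16* at 2 weeks on the log2(FPKM + 0.1) scale. *Dpep1* was higher at 1 week and *Cd248* at 2 weeks. *Pdgfra*, *Tcf21* and *Gsn* did not pass the threshold at either week. A gene was called at a Benjamini-Hochberg adjusted p under 0.01, from limma over all tested genes, with an absolute log2 fold change over 1. By this rule 6 of 10 members were higher *in vivo* at 1 week, where 7.79% of all tested genes were, and 6 of 10 at 2 weeks, where 9.02% were. Of the members, 0 were lower at either week, where 5.07% and 8.05% of all tested genes were. At an unadjusted p under 0.05 the numbers lower were also 0, as they were with limma voom on the recovered fragments. The median log2 fold change of the members was 1.48 at 1 week and 1.498 at 2 weeks, and that of all tested genes was -0.0058 and -0.0034. A scaling between libraries is built into the deposited FPKM, and when it was taken out the median of all tested genes moved to -0.34 and -0.32. The share of called genes that were higher *in vivo* then dropped from 60.6% to 36.8% for 1 week and from 52.8% to 33.1% for 2 weeks.

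**Figure D1:**
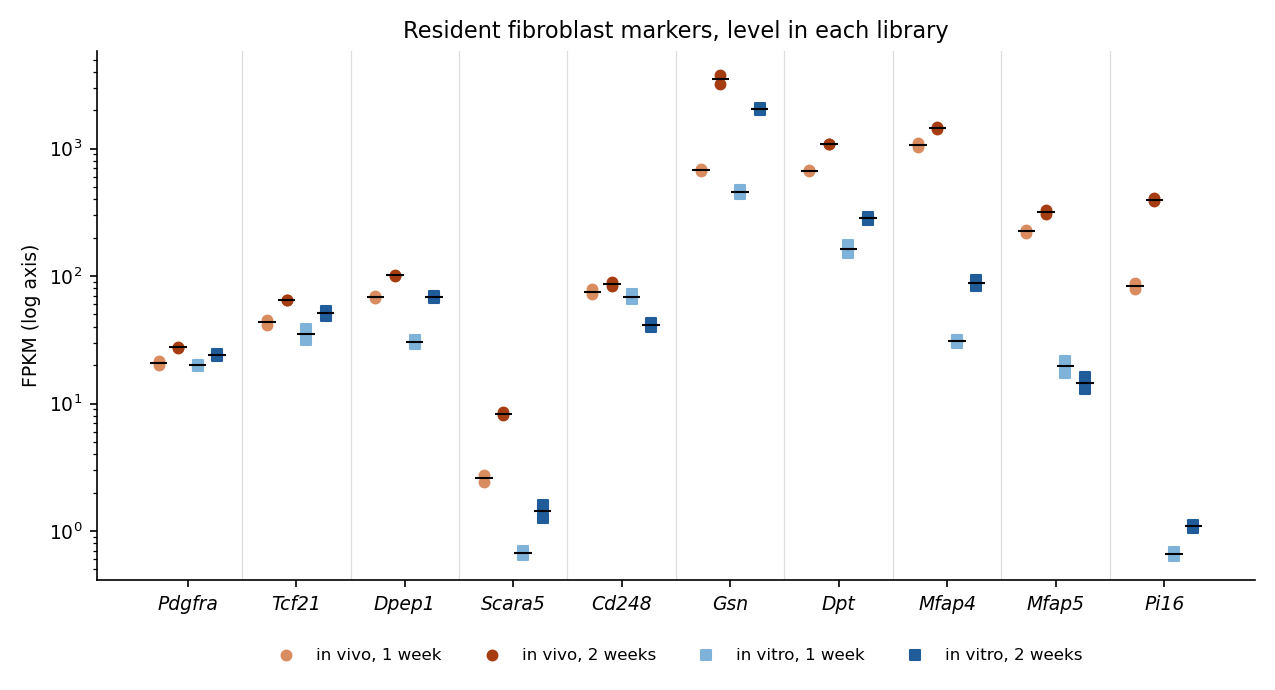
FPKM on a log axis for each marker gene in each library, with circles for *in vivo* samples, squares for *in vitro* samples, light colours for 1 week, dark colours for 2 weeks and a line at the mean of the 2 libraries. *Pdgfra* stayed between 19.8 and 27.8 in all libraries, while *Pi16* ran from 0.638 to 406.

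The lineage genes differed little between the settings. *Pdgfra* (ENSMUSG00000029231, chr5:75152292-75198215 of mm10, plus strand) encodes the platelet-derived growth factor receptor that cardiac fibroblasts carry from development on. It had an FPKM of 20.1 and 21.6 *in vivo* against 20.2 and 19.8 *in vitro* at 1 week, then of 27.3 and 27.8 *in vivo* against 24.4 and 23.5 *in vitro* at 2 weeks. The groups overlapped at 1 week and did not at 2 weeks. Its log2 fold change was 0.06 (95% interval -0.08 to 0.20, limma adjusted p = 0.458) at 1 week and 0.20 (95% interval 0.06 to 0.34, limma adjusted p = 0.0275) at 2 weeks. Without the scaling between libraries both values fell below 0, to -0.28 (limma adjusted p = 0.00942) at 1 week and -0.13 at 2 weeks. Both were under the fold threshold, but the direction of *Pdgfra* depended on the scaling. *Tcf21* (ENSMUSG00000045680, chr10:22817281-22820174, minus strand) encodes the helix-loop-helix factor that epicardial cells need to form fibroblasts. Its FPKM at 1 week was 41.3 and 45.6 *in vivo* against 38.3 and 31.6 *in vitro*, and at 2 weeks 65.4 and 64.8 *in vivo* against 48.9 and 53.0 *in vitro*. Both *in vivo* libraries were above both *in vitro* libraries at each week, by a log2 fold change of 0.32 (95% interval 0.08 to 0.56, limma adjusted p = 0.0422) and 0.35 (95% interval 0.11 to 0.60, limma adjusted p = 0.0252). At 1 week this also turned below 0 without the scaling. The upper ends of these intervals put the difference of these genes under the log2 fold change of 1 that the rule asks for. *Pdgfra* overlaps *Gm42802* and *Gm42803* on the opposite strand and *Mir7025* on its own, with an FPKM of at most 7.26 among them. *Tcf21* overlaps the antisense gene *Gm10824*, at an FPKM of at most 2.76. Whether fragments were counted by strand is not given in the sources used here.

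*Pi16* (ENSMUSG00000024011, chr17:29318877-29329413, plus strand), a peptidase inhibitor of the CRISP family that marks the universal fibroblast state, differed most. Its FPKM was 78.9 and 88.5 *in vivo* against 0.684 and 0.638 *in vitro* at 1 week. At 2 weeks it was 389.8 and 406 *in vivo* against 1.05 and 1.13 *in vitro*. No *in vitro* library held more than 61 fragments of *Pi16*, and no *in vivo* library fewer than 3682. On the log2 scale the fold change was 6.78 (standard error 0.08, limma adjusted p = 1.35e-07) at 1 week and 8.39 (standard error 0.08, limma adjusted p = 3.2e-08) at 2 weeks. Ranked by log2 fold change, *Pi16* was number 7 of all tested genes at 1 week and number 5 at 2 weeks.

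*Dpt* (ENSMUSG00000026574, chr1:164796644-164824266, plus strand) encodes dermatopontin, a matrix protein that binds decorin and helps collagen fibrils assemble. It had an FPKM of 678 and 665 *in vivo* against 175 and 151 *in vitro* at 1 week, then of 1089 and 1089 *in vivo* against 292 and 277 *in vitro* at 2 weeks. Unlike *Pi16*, it was thus an abundant transcript in culture too. Without a library of the starting cells, a fall in culture and a rise in the heart cannot be told apart. Its log2 fold change was 2.05 (standard error 0.09, limma adjusted p = 6.74e-06) at 1 week and 1.94 (standard error 0.09, limma adjusted p = 6.33e-06) at 2 weeks.

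Both microfibril-associated genes were far higher *in vivo*. *Mfap4* (ENSMUSG00000042436, chr11:61485431-61488900, plus strand) encodes a fibrinogen-related glycoprotein that binds elastin, fibrillin and collagen. It stood at an FPKM of 1029.5 and 1112.5 *in vivo* against 30.0 and 31.4 *in vitro* at 1 week, and at 1415 and 1489 *in vivo* against 83.8 and 92.5 *in vitro* at 2 weeks. The difference was a log2 fold change of 5.12 (standard error 0.08, limma adjusted p = 1.35e-07) at 1 week and 4.04 (standard error 0.08, limma adjusted p = 3.39e-07) at 2 weeks. *Mfap4* overlaps the oppositely oriented *Mapk7*, whose FPKM was at most 13.3. *Mfap5* (ENSMUSG00000030116, chr6:122505845-122529290, plus strand) encodes MAGP-2, a small glycoprotein of fibrillin microfibrils. Its FPKM was 219 and 231 *in vivo* against 21.6 and 17.5 *in vitro* at 1 week, and 306 and 329.7 *in vivo* against 12.9 and 16.3 *in vitro* at 2 weeks. For *Mfap5* the log2 fold change was 3.52 (standard error 0.14, limma adjusted p = 4.71e-06) and then 4.44 (standard error 0.14, limma adjusted p = 1.5e-06).

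The cell surface members gave smaller differences. *Scara5* (ENSMUSG00000022032, chr14:65666403-65764826, plus strand), a scavenger receptor that takes up ferritin, was the least abundant *in vivo*. It had an FPKM of 2.76 and 2.41 *in vivo* against 0.650 and 0.692 *in vitro* at 1 week, then of 8.07 and 8.63 *in vivo* against 1.27 and 1.61 *in vitro* at 2 weeks. Its log2 fold change was 1.80 (standard error 0.15, limma adjusted p = 0.000141) and 2.47 (standard error 0.15, limma adjusted p = 2.71e-05). *Dpep1* (ENSMUSG00000019278, chr8:123186242-123201812, plus strand) encodes a membrane dipeptidase that cleaves cysteinyl-glycine and leukotriene D4. The FPKM of *Dpep1* was 69.8 and 66.9 *in vivo* against 31.7 and 29.4 *in vitro* at 1 week, and 99.997 and 103 *in vivo* against 70.1 and 67.7 *in vitro* at 2 weeks. It was called at 1 week, with a log2 fold change of 1.16 (standard error 0.06, limma adjusted p = 1.68e-05), and not at 2 weeks, with 0.56 (standard error 0.06, limma adjusted p = 0.000339). *Cd248* (ENSMUSG00000056481, chr19:5068078-5070637, plus strand), the C-type lectin endosialin of fibroblasts and pericytes, was called at 2 weeks instead. It had an FPKM of 72.0 and 79.3 *in vivo* against 71.8 and 66.0 *in vitro* at 1 week, then of 89.2 and 84.1 *in vivo* against 43.0 and 40.0 *in vitro* at 2 weeks. The log2 fold change of *Cd248* was 0.13 (95% interval -0.05 to 0.32, limma adjusted p = 0.21) at 1 week and 1.06 (standard error 0.08, limma adjusted p = 5.78e-05) at 2 weeks. Without the scaling between libraries, *Dpep1* at 1 week dropped to 0.82 and *Cd248* at 2 weeks to 0.73, and neither was called. *Cd248* at 1 week was then below 0, as it was after quantile normalization.

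*Gsn* (ENSMUSG00000026879, chr2:35256380-35307892, plus strand) encodes gelsolin, which severs and caps actin filaments and which resting fibroblasts hold in large amounts. Its FPKM was 662 and 694 *in vivo* against 438 and 471 *in vitro* at 1 week, and 3210.4 and 3793 *in vivo* against 1996 and 2075 *in vitro* at 2 weeks. All *in vivo* libraries were above the *in vitro* libraries of the same week. The log2 fold change of 0.58 (standard error 0.10, limma adjusted p = 0.0044) at 1 week and 0.78 (standard error 0.10, limma adjusted p = 0.000908) at 2 weeks stayed under the fold that a call needs.

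**Figure D2:**
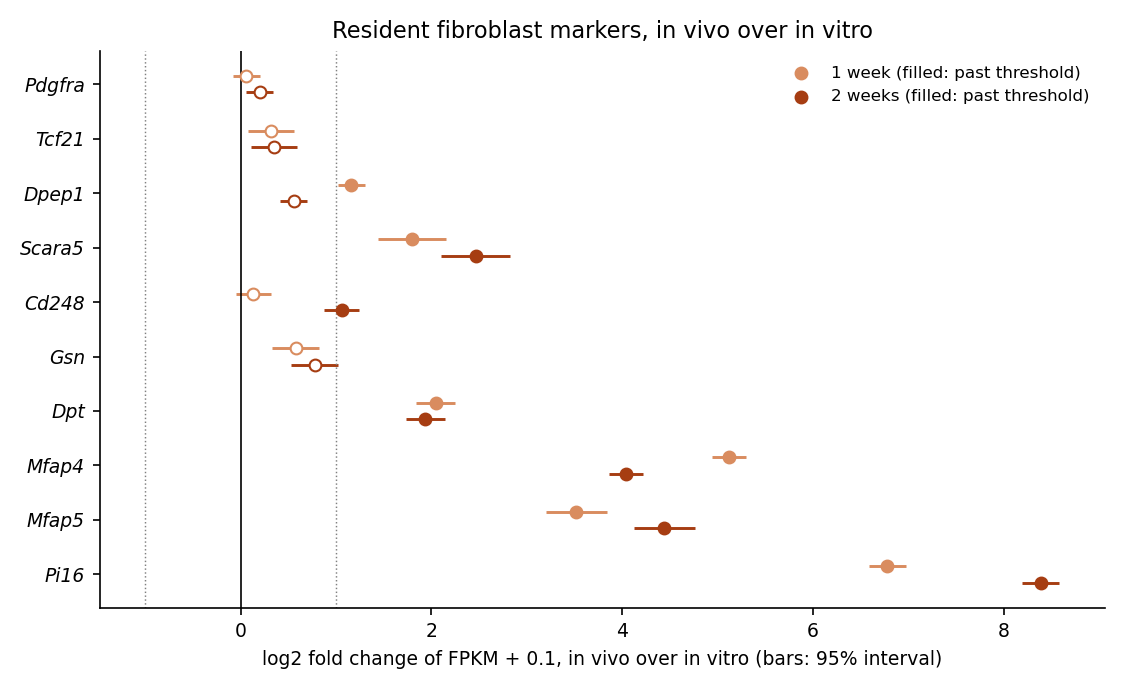
Log2 fold change of FPKM + 0.1, *in vivo* over *in vitro*, for each marker at 1 week (light) and 2 weeks (dark), with 95% intervals from limma, filled points for called genes and dotted lines at a log2 fold change of 1 in either direction. All points lie above 0 as deposited (*Pdgfra*, *Tcf21* and *Cd248* at 1 week and *Pdgfra* at 2 weeks fell below it without the scaling between libraries), from 0.06 for *Pdgfra* at 1 week to 8.39 for *Pi16* at 2 weeks.

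Set against *Pdgfra* in the same library, a measure that the scaling between libraries does not touch, the members kept this spread of differences. The ratio of *Pi16* to *Pdgfra* FPKM was 4.01 ± 0.134 (SD, n = 2) *in vivo* against 0.0331 ± 0.00117 *in vitro* at 1 week, and 14.4 ± 0.229 and 0.0455 ± 0.00329 at 2 weeks. For *Mfap4* it was 51.4 ± 0.351 *in vivo* against 1.54 ± 0.0725 *in vitro* at 1 week, and 52.7 ± 1.17 and 3.69 ± 0.347 at 2 weeks. *Mfap5* stood at 10.8 ± 0.104 against 0.978 ± 0.133 and then at 11.5 ± 0.459 against 0.611 ± 0.115. The ratio of *Tcf21* to *Pdgfra* was 2.08 ± 0.0464 *in vivo* against 1.75 ± 0.215 *in vitro* at 1 week, and 2.36 ± 0.0491 and 2.13 ± 0.174 at 2 weeks. The *Tcf21* ratio thus differed little between the groups, whereas those of *Pi16*, *Mfap4* and *Mfap5* were separated by an order of magnitude or more. A ratio shows unequal change and not which of its genes changed.

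Compared per length within a group, the order of the members also differed. In the *in vivo* samples at 1 week it ran from *Mfap4* (mean FPKM 1071, number 23 of all genes) through *Gsn*, *Dpt*, *Mfap5*, *Pi16*, *Cd248*, *Dpep1*, *Tcf21* and *Pdgfra* to *Scara5* (2.58), and neither *Gsn* and *Dpt* nor *Pi16* and *Cd248* were separated beyond the range of their libraries. In the *in vitro* samples at 1 week *Gsn* (455, number 47) came before *Dpt*, *Cd248*, *Tcf21*, *Mfap4*, *Dpep1*, *Pdgfra*, *Mfap5*, *Scara5* and *Pi16* (0.661). There the ranges of *Mfap4* and *Dpep1*, of *Pdgfra* and *Mfap5*, and of *Scara5* and *Pi16* overlapped. At 2 weeks no neighbours overlapped in either group. *Gsn* then led *in vivo* (3501.5, number 4 of all genes), followed by *Mfap4*, *Dpt*, *Pi16*, *Mfap5*, *Dpep1*, *Cd248*, *Tcf21*, *Pdgfra* and *Scara5* (8.35). It also led *in vitro* (2035, number 11), followed by *Dpt*, *Mfap4*, *Dpep1*, *Tcf21*, *Cd248*, *Pdgfra*, *Mfap5*, *Scara5* and *Pi16* (1.09). *Pi16* thus stood last of the members in culture and number 4 among them in the heart at 2 weeks. Together the 10 members made up 0.924% and 0.977% of all FPKM *in vivo* and 0.315% and 0.317% *in vitro* at 1 week, and 2.03% and 2.29% *in vivo* and 0.901% and 0.880% *in vitro* at 2 weeks.

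The second comparison followed the markers from 1 week to 2 weeks. *In vivo*, *Gsn*, *Pi16* and *Scara5* rose, and *in vitro*, *Gsn*, *Mfap4* and *Dpep1* rose. That is 3 of 10 members *in vivo*, where 1.23% of all tested genes rose and 0.949% fell, and 3 of 10 *in vitro*, where 2.76% rose and 1.05% fell. Of the members, 0 fell in either setting by limma, and 0 fell by limma voom. At an unadjusted p under 0.05, 0 were lower at 2 weeks *in vivo* against 2 *in vitro*, *Cd248* and *Mfap5*. The median log2 fold change of the members was 0.58 *in vivo* against 0.72 *in vitro*, and that of all tested genes -0.0033 and 0.016. Over the same weeks in culture the summed FPKM of the mesothelial markers went from between 242 and 250 to between 507 and 516, of the cardiomyocyte markers from between 166 and 188 to between 1035 and 1229, of the endothelial markers from between 25.0 and 25.9 to between 54.3 and 64.6 and of the mural markers from between 141 and 159 to between 214 and 228. The fibroblast sum in culture went from between 2889 and 2993 down to between 1936 and 1960. *In vivo* the mesothelial sum went from between 15.3 and 17.2 to between 34.5 and 34.9, the cardiomyocyte sum from between 16.5 and 19.6 to between 27.7 and 48.9, and the macrophage sum from between 2748 and 3150 down to between 2009 and 2425. The fibroblast sum went down *in vivo* as well, from between 10400 and 11310 to between 8820 and 10080. There the endothelial sum went from between 95.15 and 108.7 down to between 85.28 and 93.25. The mural sum *in vivo* went from between 171.6 and 186.3 down to between 153.3 and 170.0. The part of these sums in the changes of the members was not tested.

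*Gsn* rose by a log2 fold change of 2.36 (standard error 0.10, limma adjusted p = 0.000308) *in vivo* and of 2.16 (standard error 0.10, limma adjusted p = 0.000152) *in vitro*, so that its levels at 2 weeks were above those at 1 week in every library of both settings. *Pi16* rose *in vivo* by 2.25 (standard error 0.08, limma adjusted p = 0.000193), and *in vitro* its change was 0.64 (standard error 0.08, limma adjusted p = 0.00272). *Scara5* changed by 1.66 (standard error 0.15, limma adjusted p = 0.00153) *in vivo* and 0.99 (standard error 0.15, limma adjusted p = 0.00565) *in vitro*. *Mfap4* rose *in vitro* by 1.52 (standard error 0.08, limma adjusted p = 0.00017) and changed *in vivo* by 0.44 (standard error 0.08, limma adjusted p = 0.0125), and *Dpep1* rose *in vitro* by 1.17 (standard error 0.06, limma adjusted p = 0.000177) and changed *in vivo* by 0.57 (standard error 0.06, limma adjusted p = 0.00233). *Cd248*, at -0.73 (standard error 0.08, limma adjusted p = 0.00146), and *Mfap5*, at -0.42 (standard error 0.14, limma adjusted p = 0.0625), were the members with lower values at 2 weeks in culture. With any of the 4 *in vivo* libraries left out, *Scara5* was no longer called *in vivo*, and without replicate 1 of the *in vivo* samples at 1 week only *Pi16* was. Fitted on the 4 libraries of a setting alone, these comparisons called 0 members, and their adjusted p lay at 0.0335 for the 3 *in vivo* and between 0.0128 and 0.0135 for the 3 *in vitro*.

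**Figure D3:**
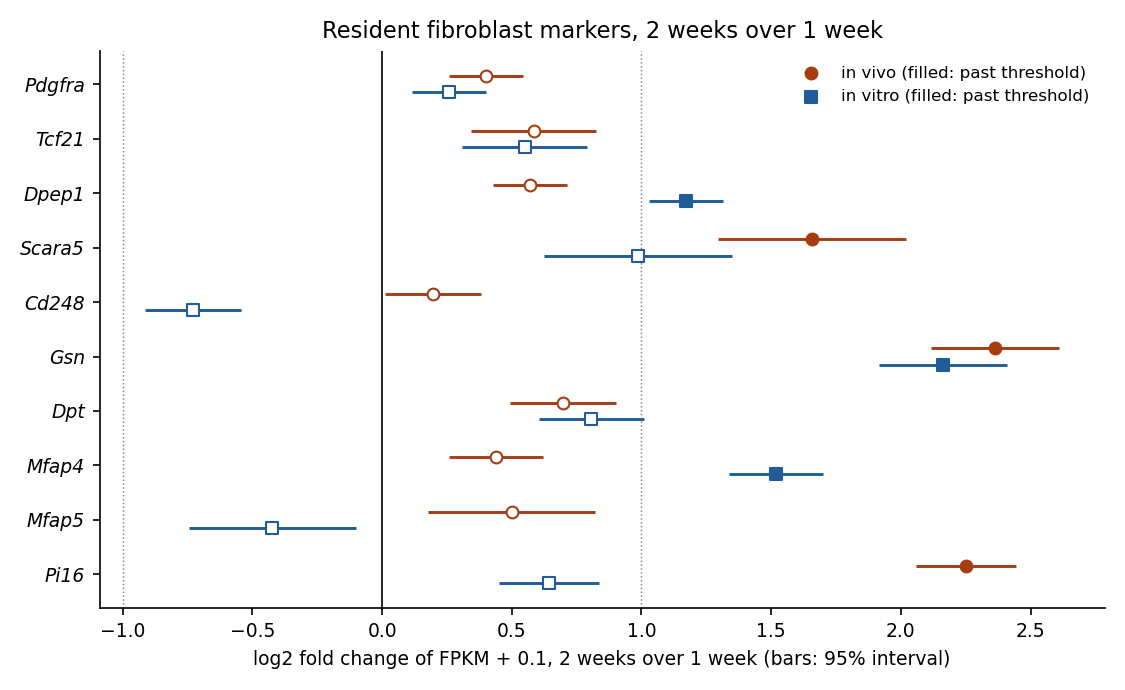
Log2 fold change of FPKM + 0.1, 2 weeks over 1 week, for each marker in the *in vivo* samples (circles) and the *in vitro* samples (squares), with 95% intervals from limma, filled points for called genes and dotted lines at a log2 fold change of 1 in either direction. *Gsn* stood at 2.36 *in vivo* and 2.16 *in vitro*, whereas *Pi16* stood at 2.25 *in vivo* against 0.64 *in vitro* and *Mfap4* at 0.44 and 1.52.

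Whether the *in vivo* to *in vitro* difference itself changed between the weeks was tested with the interaction contrast. It grew for *Pi16*, by 1.61 on the log2 scale (standard error 0.11, limma adjusted p = 0.00238), and shrank for *Mfap4*, by -1.08 (standard error 0.11, limma adjusted p = 0.00382). These were 2 of 10 members, where 0.573% of all tested genes had a more positive and 1.15% a more negative difference at 2 weeks. *Cd248*, at 0.93 (standard error 0.11, limma adjusted p = 0.00609), and *Dpep1*, at -0.60 (standard error 0.09, limma adjusted p = 0.00929), were under the fold threshold. For *Gsn* the difference between weeks was 0.20 (95% interval -0.15 to 0.55, limma adjusted p = 0.428) and for *Dpt* -0.11 (95% interval -0.40 to 0.18, limma adjusted p = 0.61). With 1 library left out, *Pi16* stayed between 1.53 and 1.69 and was called only without replicate 2 of the *in vivo* samples at 2 weeks, and *Mfap4* stayed between -1.15 and -1.01 and was not called. Over all alternatives the adjusted p ran from 0.000295 to 0.0176 for *Pi16* and from 8.21e-05 to 0.0254 for *Mfap4*.

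Other genes of resting fibroblasts divided into opposite directions. Of 32 further genes on such a list, all tested, the *in vivo* samples had 17 higher and 4 lower at 1 week and 16 higher with 5 lower at 2 weeks, for a median log2 fold change of 1.11 and 1.27. *Ly6a*, which encodes the surface antigen SCA-1 of progenitor-like fibroblasts, had an FPKM of 189 and 119 *in vivo* against 3.34 and 2.0002 *in vitro* at 1 week and a log2 fold change of 5.80 (standard error 0.28, limma adjusted p = 1.21e-05). At 2 weeks its value was 5.64 (standard error 0.28, limma adjusted p = 1.06e-05). *Ly6c1*, a neighbour in the same family whose fragments may be shared with its close copy *Ly6c2* and so are uncertain, stood at 6.22 (standard error 0.27, limma adjusted p = 8.11e-06) and 5.20 (standard error 0.27, limma adjusted p = 1.31e-05). In culture at 1 week *Ly6c1* had only 10 and 6 fragments. In the opposite direction, *Hsd11b1*, which regenerates active glucocorticoid, had an FPKM of 0.985 and 1.55 *in vivo* against 24.1 and 20.4 *in vitro* at 1 week. Its log2 fold change was -4.06 (standard error 0.20, limma adjusted p = 1.48e-05) at 1 week and -4.52 (standard error 0.20, limma adjusted p = 7.2e-06) at 2 weeks. *Efemp1*, which encodes the matrix protein fibulin-3, was lower *in vivo* by -3.54 (standard error 0.13, limma adjusted p = 3.38e-06) and -3.62 (standard error 0.13, limma adjusted p = 2.51e-06). *Dpp4*, a surface peptidase often named beside *Pi16* as a mark of universal fibroblasts and picked out here after its value was seen, had a log2 fold change of -2.86 (standard error 0.19, limma adjusted p = 4.66e-05) at 1 week and -3.04 (standard error 0.19, limma adjusted p = 2.71e-05) at 2 weeks. The others lower *in vivo* were *Inmt* at both weeks and *Ces1d* at 2 weeks. *Ces1d* was not called without replicate 1 of the *in vivo* samples or either replicate of the *in vitro* samples of that week, which left 4 lower. With no fold threshold 8 genes of the list were lower at 1 week and 6 at 2 weeks, and at an unadjusted p under 0.05 these were 9 and 7. Without the scaling between libraries 5 genes of the list were called lower at 1 week and 6 at 2 weeks. Genes of the resting list thus differed in both directions. The mesothelial marker sum was also lower *in vivo*, as given above, and its part in the lower genes was not tested.

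The activated fibroblast list moved further in the same direction as most members. At each week 20 of its 22 genes were higher *in vivo* and 0 were lower by limma and by limma voom, and 2 were lower at an unadjusted p under 0.05. The list's median log2 fold change was 2.94, then 2.93. The 2 not called were the contractile genes *Acta2*, at -0.43 (limma adjusted p = 0.00482) and -0.95 (limma adjusted p = 9.74e-05), and *Tagln*, at -0.57 (limma adjusted p = 0.00505) and -0.34 (limma adjusted p = 0.0358). *Acta2* was called lower at 2 weeks with quantile normalization, without the scaling between libraries and without replicate 2 of the *in vivo* samples at 2 weeks, which made the count of lower genes 1. *Comp*, a matrix pentamer of scar-forming fibroblasts, had an FPKM of 146 and 195 *in vivo* against 0.197 and 0.181 *in vitro* at 1 week, then of 1036 and 1071 *in vivo* against 0.658 and 0.570 *in vitro* at 2 weeks. Its log2 fold change was 9.19 (standard error 0.14, limma adjusted p = 1.35e-07) and 10.53 (standard error 0.14, limma adjusted p = 7.67e-08). In culture at 1 week *Comp* had only 9 and 8 fragments. *Thbs4*, a thrombospondin of tendon and injured heart, had at most 1 fragment *in vitro* at 1 week, and its *in vivo* level was at least 2037-fold higher against a floor of 3 fragments per library, a limit that covers counting error only. At 2 weeks *Thbs4* stood at 267 and 282 *in vivo* against 0.440 and 0.291 *in vitro*. Some markers of the resting state and most of the activated list were thus higher in the same bulk libraries *in vivo*. Other resting genes, among them *Hsd11b1*, *Efemp1*, *Dpp4* and *Inmt*, were lower there. Bulk libraries do not show whether the markers that were higher were in the same cells.

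**Figure D4:**
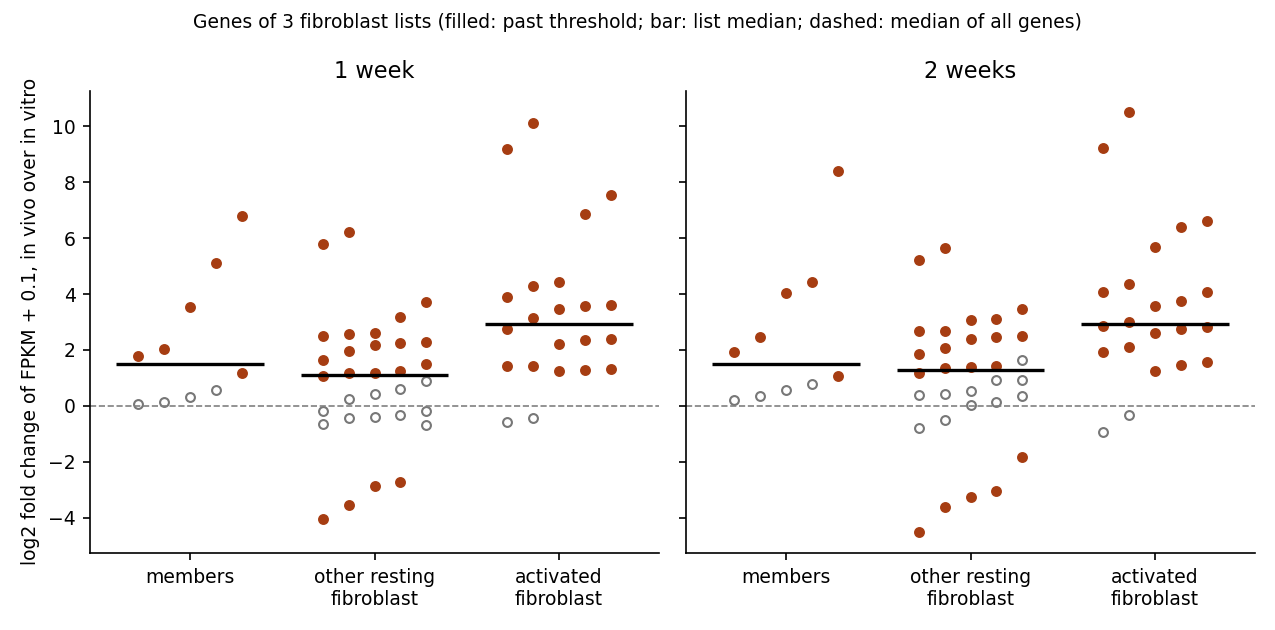
Log2 fold change of FPKM + 0.1, *in vivo* over *in vitro*, at 1 week (left) and 2 weeks (right) for the 10 markers, the 32 other resting fibroblast genes and the 22 activated fibroblast genes, with filled points for called genes, a bar at each list's median and a dashed line at the median of all tested genes. The medians at 1 week were 1.48, 1.11 and 2.94, and called genes below 0 appear only among the other resting fibroblast genes.

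Of 28 structural relatives of the members, 26 were tested, and *in vivo* 9 of these were higher with 2 lower at 1 week, then 8 higher with 2 lower at 2 weeks, for a median log2 fold change of 0.24 and 0.44. The lower genes, 2 of 26, were a share near that of all tested genes, 5.07% and 8.05%. By limma voom 3 relatives were lower at each week, and at an unadjusted p under 0.05 these were 5 and then 4. *Pdgfrl*, a secreted protein resembling the ligand-binding part of the receptor, had an FPKM of 74.1 and 73.3 *in vivo* against 3.53 and 3.77 *in vitro* at 1 week, with a log2 fold change of 4.30 (standard error 0.06, limma adjusted p = 1.35e-07), where *Pdgfra* itself stood at 0.06. *Crispld1*, a CRISP family relative of *Pi16*, was higher by 3.26 (standard error 0.36, limma adjusted p = 0.000479) at 1 week and 4.13 (standard error 0.36, limma adjusted p = 0.000127) at 2 weeks, at an FPKM of at most 3.43. *In vitro* it had only 1 and 8 fragments at 1 week and 5 and 7 at 2 weeks, so the size of its fold change is uncertain. Of the lectin-like relatives of *Cd248*, *Thbd*, the thrombin cofactor thrombomodulin, was lower *in vivo* at 1 week by -1.38 (standard error 0.08, limma adjusted p = 2.78e-05) and *Cd93* at 2 weeks by -1.33 (standard error 0.14, limma adjusted p = 0.000333). At 2 weeks *Thbd* stood at 0.45 (standard error 0.08, limma adjusted p = 0.00342), with a difference between weeks of 1.83 (standard error 0.11, limma adjusted p = 0.00201). The remaining relative of this kind, *Clec14a*, was higher *in vivo* at both weeks, at 3.15 (standard error 0.18, limma adjusted p = 2.44e-05) and 1.78 (standard error 0.18, limma adjusted p = 0.000236). *Mfap3l* was lower at both weeks, by -1.20 (standard error 0.22, limma adjusted p = 0.00459) and -1.79 (standard error 0.22, limma adjusted p = 0.000597), at an FPKM of at most 1.77. At 1 week it was no longer called when any 1 library of that week or any 1 *in vitro* library of 2 weeks was left out, which left *Thbd* as the 1 lower gene.

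Of 16 genes whose products bind or are bound by the members, which include *Fbn1* and *Dcn* from the resting list and *Col1a1* and *Fn1* from the activated list, 10 were higher and 0 lower at 1 week by limma and by limma voom, with 1 lower at an unadjusted p under 0.05, and at 2 weeks 8 were higher and 1 was lower, with 3 lower at an unadjusted p under 0.05. The median log2 fold change was 1.38 and 1.17. *Eln*, tropoelastin, had an FPKM of 582 and 685 *in vivo* against 81.1 and 78.0 *in vitro* at 1 week and a log2 fold change of 2.99 (standard error 0.09, limma adjusted p = 1.72e-06) at 1 week and 3.35 (standard error 0.09, limma adjusted p = 9.62e-07) at 2 weeks. *Fbn1*, fibrillin-1, stood at 1.96 (standard error 0.12, limma adjusted p = 3.5e-05) and 3.12 (standard error 0.12, limma adjusted p = 3.72e-06). *Fbn2*, fibrillin-2, stood at 3.14 (standard error 0.21, limma adjusted p = 5.18e-05) and 2.94 (standard error 0.21, limma adjusted p = 5.26e-05), and *Ltbp1*, which tethers latent TGF-β to microfibrils, at 3.04 (standard error 0.10, limma adjusted p = 2.12e-06) and 3.003 (standard error 0.10, limma adjusted p = 1.98e-06). The gene lower at 2 weeks was *Fth1*, the heavy chain of ferritin, the ligand of SCARA5, at -1.13 (standard error 0.12, limma adjusted p = 0.00035). The light chain gene *Ftl1*, picked out after its value was seen, was not called at either week. It stood at -0.20 (limma adjusted p = 0.141) at 1 week and -0.42 (limma adjusted p = 0.0106) at 2 weeks. *Fth1* has many near-identical pseudogene copies, so its value is uncertain, and at 2 weeks it was not called when fitted on the 4 libraries of that week alone.

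The genes most like each member across the 8 libraries were found by Pearson's r of log2(FPKM + 0.1) among the 7109 genes that code for protein and average an FPKM of 5 or more. The 8 points fall into the 4 groups and share their libraries, so r describes the group pattern, and 12.8% of candidates had an r over 0.9 with *Pi16*. Nearest to *Pi16* were *Nox4* (r = 0.9998), *Comp* (0.9991) and *Anxa8* (0.999). *Mfap4* was nearest to *Olfml3*, *Cx3cl1* and *Rgs4*, *Mfap5* to *Plpp5*, *Endod1* and *Plod3*, *Dpt* to *Htra3*, *Lrig1* and *Cd34*, and *Scara5* to *Fmod*, *Thra* and *Arhgef1*. *Cd248* was nearest to *Nov*, *Tubb2a* and *Jcad*, *Dpep1* to *Lbp*, *Fcgrt* and *Rasd1*, *Gsn* to *Tmem259*, *Hr* and *B4gat1*, *Pdgfra* to *Mapk8ip1*, *Tmem109* and *Tmem259*, and *Tcf21* to *Abhd16a*, *Paxx* and *Il11ra1*. All of these r were at least 0.9809. *Tmem259* appeared for both *Gsn* and *Pdgfra*, the other members sharing no neighbour.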

How the data were processed

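SMARTER mRNA libraries of sorted eGFP+ MICFs were sequenced and mapped by the authors' provider, and the submitters' processing notes name CASAVA, HISAT2 2.0.5 and mm10, with the counting tool not given in the sources used here. The authors deposited FPKM values per gene for the 8 libraries. In every library 100% of the values above 0 gave whole fragments (tolerance 0.01), and the library size behind the FPKM was 0.9935 to 1.0062 times a median-ratio size. Of 54409 gene identifiers shared with GENCODE vM21, 98.33% had the same start and end. *Pi16* and *Cd248* did not, and coordinates are those of the deposited table.

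FPKM were compared as log2(FPKM + 0.1) with limma 3.58.1 in R 4.3.3 (4 groups, moderated variances with an intensity trend, genes at 0.5 FPKM or more in 2 or more libraries, Benjamini-Hochberg adjustment over the 15708 tested genes, called at an adjusted p below 0.01 with a log2 fold change beyond 1 in either direction). Fold changes on this scale understate the change of low genes. The authors used DESeq2, which needs counts. The procedure was tested on simulated counts. These had the same spread setting for every gene and changes only in the *in vivo* samples at 1 week. They do not show how the procedure behaves at the spread of the real replicates. Replicates differed by more than counting error (chi-square per gene 4.50 to 9.93). The correlation of same-numbered libraries was -0.02 at both weeks, so numbers were not treated as pairs. Python 3.11.15, numpy 2.4.6, pandas 2.3.3 and matplotlib 3.10.9 prepared values and figures.

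The members and gene lists were chosen with earlier results of these data known. Named by rule were all members, from each companion list the 2 highest and 2 lowest called genes at each week, and the 3 genes most like each member. Outside this rule *Dpp4*, *Inmt*, *Ces1d*, *Acta2*, *Tagln*, *Clec14a* and *Ftl1* were described, chosen after their values were seen. Alternatives were 21 settings of pseudocount, filter, scaling, gene type, libraries, block, tool, trend and threshold, with each library left out in turn. The values of 1 further marker list fixed for checking cell types are not reported here.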

Additional observations from a re-analysis of the deposited data

Results flagged for a closer look

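The *in vivo* to *in vitro* difference of 2 members differed between the weeks by the interaction contrast of limma. For *Pi16* the log2 fold change was 1.61 greater at 2 weeks than at 1 week (6.78 and then 8.39, adjusted p = 0.00238), with both *in vivo* libraries of 2 weeks above both of 1 week. For *Mfap4* it was smaller, with a difference of -1.08 (5.12 and then 4.04, adjusted p = 0.00382), and both *in vitro* libraries of 2 weeks lay above both of 1 week. With groups of 2 libraries, no library could be tested for lying far from the others of its group.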

How the results depend on the processing

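Over 1040 alternatives of the 50 member values, 984 kept direction and call, 15 became called, 32 lost the call and 9 changed sign. The counts of 6 members higher *in vivo* at 1 week and at 2 weeks stayed within 1.5 times under all 21 settings, and the calls of *Pi16*, *Mfap4*, *Mfap5*, *Dpt* and *Scara5* held in each. The changes of sign were of values that were not called. Without the scaling between libraries, *Pdgfra* was at -0.28 and *Tcf21* at -0.023 at 1 week, *Cd248* at -0.21, and *Pdgfra* at 2 weeks at -0.13. With quantile normalization *Cd248* at 1 week was at -0.045. In the difference between weeks, *Tcf21* went to -0.11, -0.02 and -0.04 without replicate 1 of the *in vitro* samples at 1 week, of the *in vitro* samples at 2 weeks and of the *in vivo* samples at 1 week, in a range of -0.11 to 0.17 over the libraries left out, and *Dpt* to 0.0011 without replicate 2 of the *in vitro* samples at 1 week, in a range of -0.22 to 0.0011.

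For 2 weeks against 1 week, the 3 members called *in vivo* became 0 with the 4 libraries compared alone, 6 with no fold threshold and 1 to 3 with 1 library left out, and the 3 called *in vitro* became 0 and 7 under the first 2 settings. Those fits on 4 libraries called no gene at all and have fewer samples to estimate the spread. For the difference between weeks, the 2 members called became 1 with no filter, 1 with no intensity trend, 4 with no fold threshold and 0 to 1 with 1 library left out. With the replicate number as a block, which the data did not show to be a pairing, 1 member was called for the difference between weeks, the adjusted p of *Mfap4* being 0.01 in a range over its alternatives of 8.21e-05 to 0.0254, and the block changed no other call of a member. The difference between weeks cannot be fitted on 4 libraries and was not run there. The cause of these changes was not tested. Depth limits *Pi16* and *Scara5* in culture most, at 38 to 133 fragments a library.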
